A study of Mus musculus with 12 samples.

Results

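The comparison described here sets whole brains of newborn wild type (WT) mice of the inbred strain 129S6/SvEvTac (129) against those of C57BL6/J (B6). It rests on 6 of the 12 arrays of the series, 3 for WT 129 and 3 for WT B6, chosen by their titles, and on all 45281 probes of the array. Every brain was taken at postnatal day 1 and hybridised to an Illumina MouseWG-6 beadchip, a 1-colour array of short probes. The WT mice do not carry the *nm1054* deletion. The study describes a *Steap3* transgene for its *nm1054* B6 mutants and does not give the transgene status of the WT mice. The *nm1054* brains, 3 on 129 and 3 on B6, enter the fit for its spread. They are also used as a second look at the strains, with the transgene described for the B6 side alone. The groups mixed male and female mice, and the sex of a brain was not labelled. The study asked about strain because the severity of hydrocephalus in mice without *Cfap221*, a protein of motile cilia, differs between these backgrounds.

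Inbred strains are near-identical within and differ between each other by many fixed alleles, which can alter how much of a transcript is made, how it is spliced, or how well a short probe pairs with it. A probe of an expression array reads a short stretch of 1 transcript. Several probes of a gene therefore give several readings of it, and probes in different exons or over a strain's sequence variant can part ways. Newborn brain holds young neurons, dividing progenitors, radial glia, few oligodendrocytes, and cells of the vessels, meninges, choroid plexus and immune system.

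The deposited values are log2 signals from which each probe's own median across the 12 arrays was subtracted. A value therefore gives the position of a brain relative to the others and never a signal level. Differences are 129 minus B6, tested by limma over all probes or over all genes (the mean of a gene's probes) with Benjamini-Hochberg adjustment. A difference is called where it exceeds 1.5-fold with an adjusted p below 0.05. "Higher" and "lower" refer to 129. Of the probes, 758 (1.67%) were called higher and 752 (1.66%) lower. Of 21934 genes, 269 (1.23%) were called higher and 337 (1.54%) lower. The values of WT 129 arrays lie slightly above those of WT B6 over the whole table, by a median of 0.15 log2 units. Centring each array on its median lowers every difference by 0.13, leaves 161 genes (0.734%) called higher and raises the lower ones to 490 (2.23%). The 161 are all among the 269, and the 337 lower genes were all called after centring. Because every difference moves down by the same amount, this overlap follows largely from the shift itself. For a single probe, 3 brains against 3 give an exact permutation p of 0.1 at best. The groups lay fully apart at 29.4% of all probes.

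**Figure D1:**
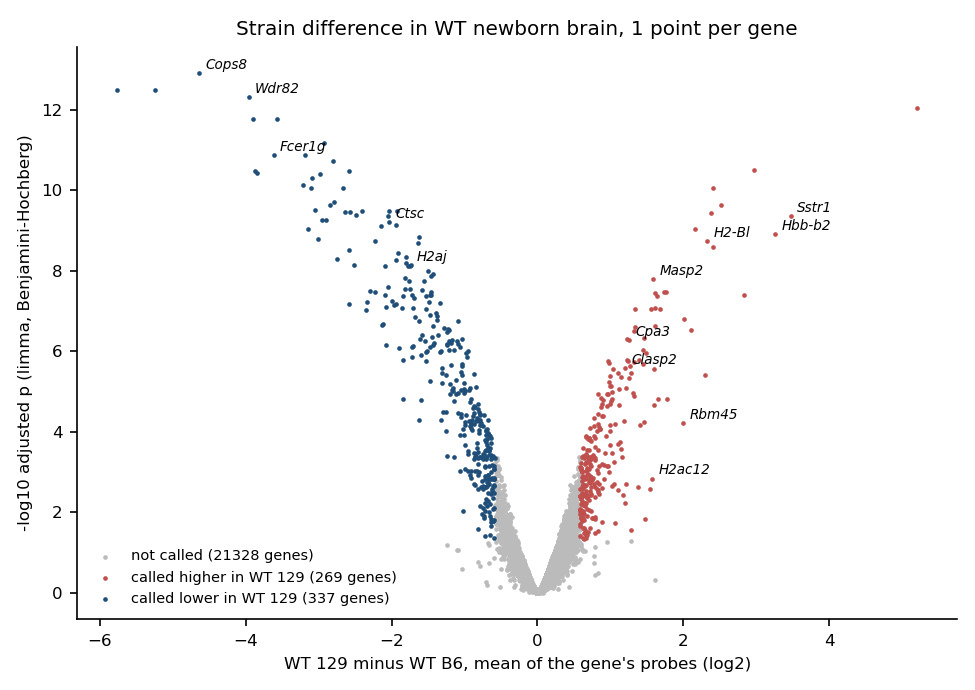
Difference between WT 129 and WT B6 brains (log2, x axis) against -log10 of the adjusted p from limma (y axis), 1 point for each of 21934 genes, as the mean of the gene's probes, n = 3 brains per strain. The 269 genes called higher in WT 129 stand on the right and the 337 called lower on the left, where the differences reach further.

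Among the genes called, *Cops8*, a subunit of the COP9 signalosome, had values of -2.48, -2.29 and -2.19 in the WT 129 brains and of 2.40, 2.25 and 2.30 in the WT B6 brains. Its groups are far apart and each is tight, with a difference of -4.63 (SE 0.10, adjusted p = 1.24e-13, limma). *Wdr82*, a WD repeat protein of histone methyltransferase complexes, was lower by 3.96 on the same scale (-3.96, SE 0.10). *Sstr1*, a receptor for somatostatin, stood at 1.68, 1.52 and 1.48 in WT 129 and at -2.07, -1.87 and -1.80 in WT B6 brains. It was the 1 gene called of 7 measured in the somatostatin system (3.47, SE 0.16). Each of these genes has 1 probe on the array, so no further reading of the same gene is at hand.

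Genes with several probes that were all called in the same direction give several readings of the same difference. Of all genes, 1025 (4.67%) had at least 1 probe called. Of 8522 genes with several probes, 618 had at least 1 called, and in 488 of these it was exactly 1. Every probe was called higher in 22 genes and lower in 25, which together are 0.552% of the genes with several probes. After centring the counts were 11 and 39. On the mean of their probes, 45 of the 47 genes kept their call after centring, which moves the 25 lower genes further down. Of the 47, 42 were also called in the same direction between *nm1054* 129 and *nm1054* B6 brains. The WT comparison does not use those brains for its means.

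The strongest of the 25 was *Arv1*, a protein of sterol handling in the endoplasmic reticulum. The mean of its probes was -1.50, -1.45 and -1.48 in WT 129 and 1.58, 1.80 and 1.74 in WT B6 brains. Both probes showed it, at -3.83 (SE 0.13) and -2.53 (SE 0.12), and the *nm1054* brains differed by -3.22. *Spata7*, known from photoreceptor cilia, was close behind, with -1.48, -1.47 and -1.72 in WT 129 and 1.79, 1.49 and 1.36 in WT B6 brains. Its probes read -3.26 and -2.95. *Cfap69*, a protein of cilia and flagella, was lower by 2.51 on the mean of its probes (-3.19 and -1.83, SE 0.15 and 0.16).

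The other genes of this set serve unrelated tasks. *Ctsc*, a lysosomal peptidase that activates serine proteases of immune granules, read -0.83, -1.02 and -1.13 in WT 129 and 0.98, 1.02 and 1.15 in WT B6 brains. All 3 of its probes were lower, at -2.93, -1.88 and -1.30 (SE 0.12 to 0.13). *Rpl29*, of the large ribosomal subunit, differed by -2.40 on the mean of its probes, but one probe read -3.72 and the other -1.09. *Zfp933*, a zinc finger gene, differed by -2.05, *B3galt6*, which builds the linker of glycosaminoglycans, by -1.93, and *Twistnb*, a subunit of RNA polymerase I, by -1.60. *Ccl21c*, a ligand of the chemokine receptor CCR7, differed by -1.99, with probes at -2.01 and -1.97. In each of these genes all WT 129 brains lay below all WT B6 brains.

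Genes higher at every probe moved less. *Clasp2*, which binds the growing ends of microtubules, had values of 0.35, 0.27 and 0.40 in WT 129 and -0.87, -0.93 and -0.77 in WT B6 brains. Its groups were apart and even (1.20, SE 0.11, adjusted p = 2.65e-06, limma), though its probes differed in size, 1.78 against 0.61. *Abhd1*, an alpha/beta hydrolase, read 0.47, 0.48 and 0.51 in WT 129 and -0.61, -0.60 and -0.28 in WT B6 brains, with 3 probes from 0.88 to 1.16. *Tmod4*, a cap of actin filaments best known from muscle, was higher by 1.02 on the mean of 3 probes. *Ntng2*, a netrin-G of neuronal surfaces, was higher by 1.10 (SE 0.20), but its WT B6 brains spread from -1.20 to -0.21. The methods' t-test, which estimates the spread of each gene from its own arrays, did not call *Ntng2* (adjusted p = 0.209) or *Tmod4*. The rest of the set of 10 are histone H2A genes and mast cell proteases.

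**Figure D2:**
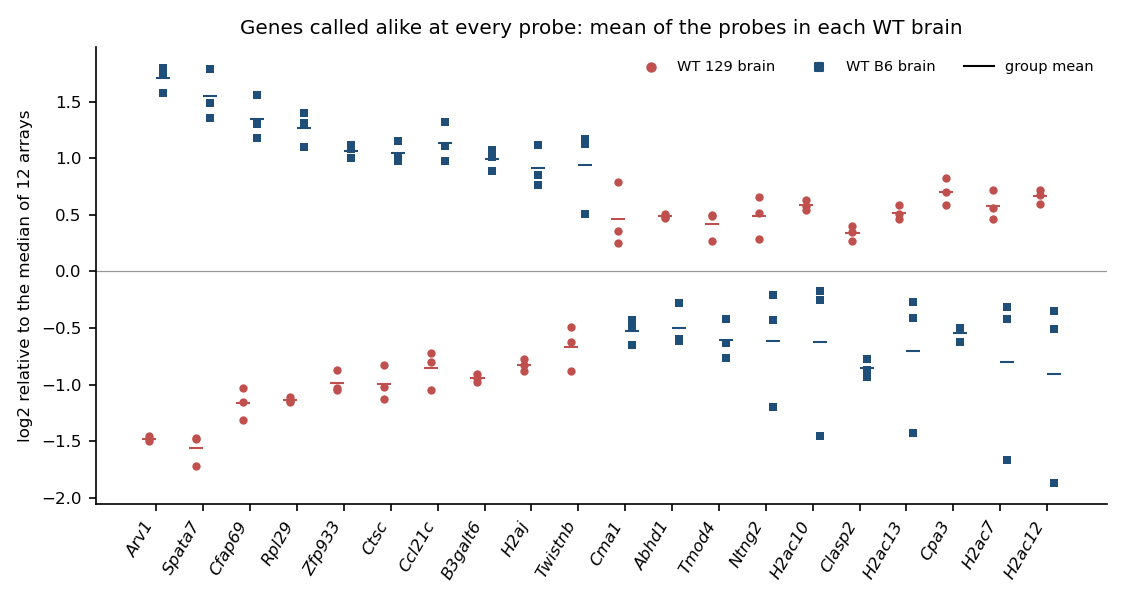
Mean of the probes (log2 relative to the median of 12 arrays, y axis) in each of the 3 WT 129 (circles) and 3 WT B6 brains (squares) for the 10 genes of each direction with the largest mean difference among those called alike at every probe. Short lines are group means, and the strains do not overlap at any of the 20 genes; from *Arv1* to *Twistnb* the WT 129 brains are below, from *Cma1* to *H2ac12* above.

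Core histones package DNA, and each is encoded by many short genes that sit in clusters and differ little in sequence. Of 16 replication-type H2A genes (symbols *H2ac* with a number) measured, 9 (56.2%, against 1.23% of all genes) were called higher in WT 129 and 0 lower. Their median difference was 1.01, against 0.14 over all genes. *H2ac12* read 0.68, 0.72 and 0.60 in WT 129 and -1.87, -0.51 and -0.35 in WT B6 brains. All WT B6 brains lay below, and replicate 1 lay far below the other two. *H2ac7* had the same shape, with 0.56, 0.72 and 0.46 against -1.67, -0.42 and -0.31, and so did *H2ac10* and *H2ac13*, each called at both probes. *H2ac12* differed by 1.58 (SE 0.27, adjusted p = 0.00143, limma) and *H2ac7* by 1.38 (SE 0.25).

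The size of the H2A difference depends on WT B6 replicate 1. Without that array 8 of the 9 genes were still called, at 0.41 to 1.10 in place of 0.61 to 1.58, and *H2ac20* was lost (0.41). Of the 9, 8 were called after centring, 6 with the WT arrays alone, 6 without WT 129 replicate 1 or 2, and 6 to 8 when centred with a WT array left out. The methods' t-test called 0 of the 9 (adjusted p = 0.219 to 0.304), and 9 of 9 were called higher in *nm1054* 129 than in *nm1054* B6 brains, by 0.73 to 1.30. The histone classes did not move as a whole. Of 13 H2B genes 0 were called (1 lower after centring), as of 9 H3 and 12 H4 genes, with medians of 0.06, 0.18 and -0.04 (at an unadjusted p under 0.05, 1, 3 and 2 were higher, and 3, 0 and 1 lower). The H2A symbols are near-copies of each other, so the probes may read shared transcripts and the 9 calls are not 9 separate readings. These classes were drawn after their values had been seen. In the list of all histone genes 10 of 81 (12.3%, against 1.23% of all genes) were higher and 1 was lower.

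The 1 histone lower in WT 129 was *H2aj*, an H2A variant gene that lies apart from the clusters. It read -0.88, -0.77 and -0.83 in WT 129 and 1.12, 0.76 and 0.85 in WT B6 brains. All 3 probes were called, at -3.28, -1.02 and -0.91, and the mean difference of -1.74 (SE 0.10, adjusted p = 7.23e-09) was -1.76 in the *nm1054* brains. WT B6 replicate 1, so low at the H2A genes, was here the highest of the WT brains.

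The promoters of genes from each side are shown because these genes share a family and move in opposite directions. They run from 250 bases before to 50 after the start in RefSeq (GRCm38.p6), 5′ to 3′ on the gene's own strand, with the letters CCAAT and TATAAA, searched on both strands and without overlap in these sequences, in capitals.
H2ac12 (chr13:22035594-22035893, minus strand): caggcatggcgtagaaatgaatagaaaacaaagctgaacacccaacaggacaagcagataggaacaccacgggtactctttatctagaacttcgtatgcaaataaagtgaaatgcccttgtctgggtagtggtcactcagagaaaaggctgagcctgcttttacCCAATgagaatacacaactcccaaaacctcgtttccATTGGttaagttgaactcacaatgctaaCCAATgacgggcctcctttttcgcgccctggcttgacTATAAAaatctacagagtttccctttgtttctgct
H2ac7 (chr13:23574131-23574430, plus strand): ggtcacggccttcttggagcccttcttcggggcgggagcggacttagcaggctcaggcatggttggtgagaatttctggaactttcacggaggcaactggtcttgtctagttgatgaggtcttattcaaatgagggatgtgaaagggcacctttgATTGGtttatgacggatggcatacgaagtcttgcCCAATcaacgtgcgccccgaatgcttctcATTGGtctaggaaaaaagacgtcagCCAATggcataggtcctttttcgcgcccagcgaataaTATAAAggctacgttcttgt
H2aj (chr6:136807998-136808297, plus strand): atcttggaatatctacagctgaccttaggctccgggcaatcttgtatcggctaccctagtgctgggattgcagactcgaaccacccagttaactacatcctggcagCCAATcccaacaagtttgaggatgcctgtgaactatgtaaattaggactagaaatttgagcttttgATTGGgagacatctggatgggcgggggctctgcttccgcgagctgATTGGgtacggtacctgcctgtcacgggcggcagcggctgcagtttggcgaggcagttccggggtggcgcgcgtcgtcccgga

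Matched promoters were found for all 16 H2A genes and for *H2aj*. CCAAT stood in those of the 9 genes called higher, in those of the 7 not called, and in that of *H2aj*, against 37.9% of 27025 promoters. TATAAA stood in 6 of the 9 and 5 of the 7 and not in *H2aj*, against 14.2% of all. Neither set of letters thus separates the H2A genes that were called from the rest, and a match is a description of the reference sequence, not a measured site.

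Mast cells are tissue cells of the immune system that sit in the meninges and along vessels of the newborn brain and store proteases in granules. Of 14 mast cell genes measured, 5 were called higher in WT 129 brains (35.7%, against 1.23% of all genes) and 1 lower (7.14%, against 1.54%). The 5 higher genes were all among the 7 granule proteases of the list. *Cpa3*, mast cell carboxypeptidase A, read 0.59, 0.83 and 0.70 in WT 129 and -0.52, -0.62 and -0.50 in WT B6 brains. Its groups were tight and far apart, and each of 3 probes was called, at 0.65, 1.42 and 1.70 (mean 1.25, SE 0.10, adjusted p = 5.18e-07, limma). *Cma1*, mast cell chymase, read 0.25, 0.79 and 0.36 against -0.43, -0.65 and -0.50 and was called at both probes (mean 0.99, SE 0.14).

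*Mcpt4*, another chymase, was higher by 0.95 (SE 0.15), with values of 0.40, 0.95 and 0.62 against -0.49, -0.33 and -0.08. The tryptase genes *Tpsab1* and *Tpsb2*, neighbours on chromosome 17, were higher by 0.94 (SE 0.12) and 0.76 (SE 0.13), and *Tpsb2* was called at 1 of 2 probes. All 5 were called after centring and without any WT array in turn, and 4 when centred and without WT 129 replicate 2 or WT B6 replicate 1, while the methods' t-test called 2, *Cpa3* and *Tpsab1*. In *nm1054* brains the differences ran from 0.55 to 0.94, and 3 were called. Other mast cell genes did not follow. The receptor *Kit* (0.09), histidine decarboxylase *Hdc* (0.02), *Ms4a2* (-0.09), *Fcer1a* (0.24), *Gata2* (-0.11), *Srgn* (0.09), *Mcpt1* (0.32) and *Mcpt2* (-0.04) were not called. The list was written after these values had been seen. In whole brain, fewer cells of a type and less RNA per cell cannot be told apart.

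*Fcer1g*, the signalling chain that mast cell and microglial Fc receptors share, went strongly the other way. It read -1.82, -1.66 and -2.07 in WT 129 and 1.77, 1.71 and 1.82 in WT B6 brains at its 1 probe (-3.61, SE 0.12). On chromosome 1 its measured neighbour *Apoa2*, an apolipoprotein, was called lower too.

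**Figure D3:**
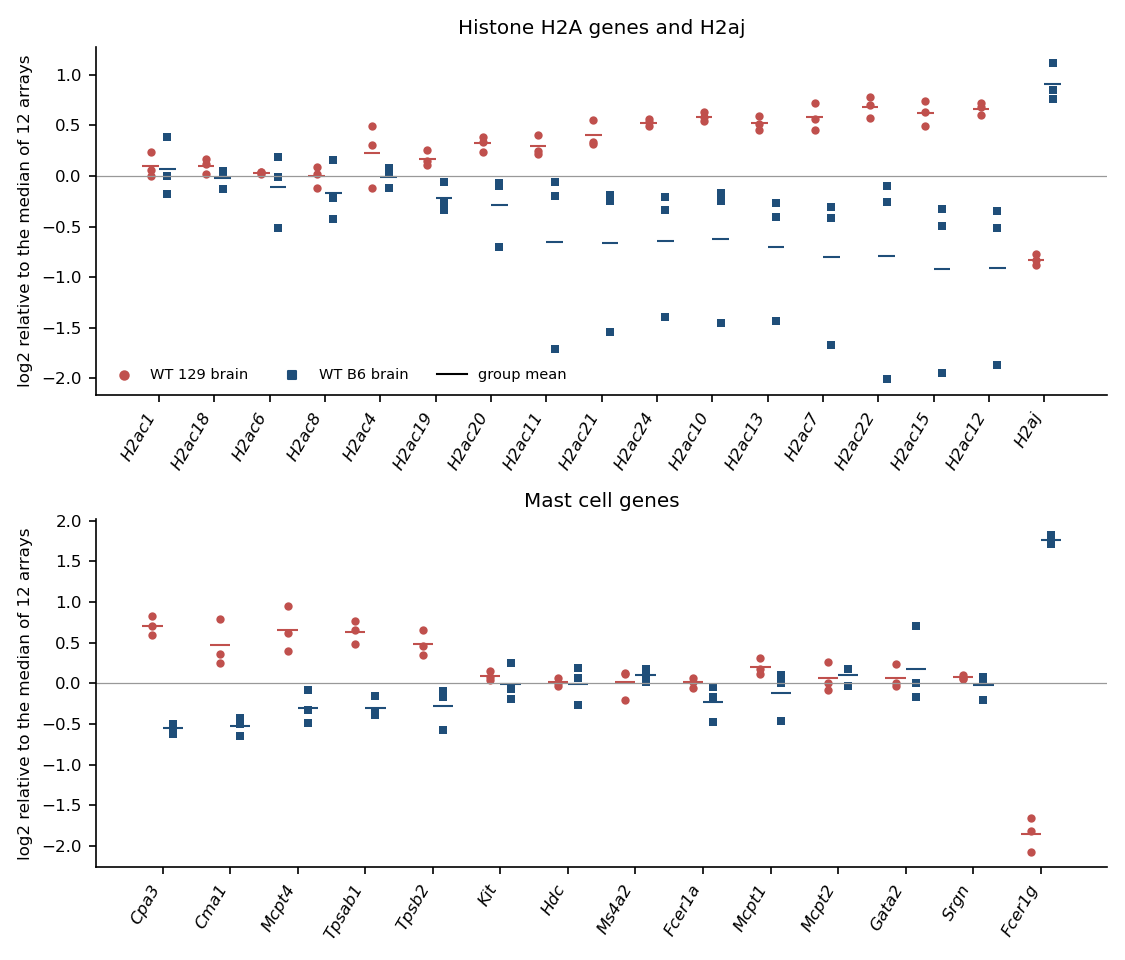
Mean of each gene's probes (log2 relative to the median of 12 arrays, y axis) in 3 WT 129 (circles) and 3 WT B6 brains (squares) for 16 H2A genes with *H2aj* (top) and 14 mast cell genes (bottom); short lines are group means. WT B6 replicate 1 is the low square of the H2A genes, as at *H2ac12* (-1.87), and the 5 proteases on the left of the lower panel differ by 0.76 to 1.25.

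Marker genes of the main brain cells differed little. Of 14 neuronal markers 0 were called, and likewise 0 of 9 for excitatory neurons, 14 for radial glia and astrocytes and 10 for the oligodendrocyte lineage, with medians of 0.18, 0.06, 0.18 and 0.09 (at an unadjusted p under 0.05, 5, 1, 4 and 0 were higher and 0 lower). With an offset of 0.14 over all genes, these medians lie near the table's own. Among inhibitory neuron markers *Lhx6*, a transcription factor of interneurons, was higher by 0.82 (SE 0.14) on 2 probes that disagreed, at 1.44 and 0.19. In the vessel list *Rgs5*, a pericyte marker, was higher by 1.13 (SE 0.16), with 0.86, 0.43 and 0.37 in WT 129 and -0.41, -0.64 and -0.68 in WT B6 brains. The other 15 genes of that list were not called on the mean of their probes.

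Of 13 microglial genes 1 was called, *Fcer1g*, lower (7.69%, against 1.54% of all genes). The list median was -0.14 (at an unadjusted p under 0.05, 3 were lower and 1 higher). *Trem2* (-0.40, SE 0.11) and *C1qc* (-0.40, SE 0.08), both microglial, stayed under 1.5-fold, while *Csf1r* was at 0.03 and *Tmem119* at 0.24. Of 9 choroid plexus genes 1 was called lower (11.1%), *Aqp1*, a water channel of the plexus (-0.62, SE 0.12), at 2 of 3 probes. At an unadjusted p under 0.05, 3 were lower and 1 higher. It read -0.35, -0.07 and -0.28 in WT 129 and 0.16, 0.56 and 0.43 in WT B6 brains. The call was lost without WT 129 replicate 1 (-0.56) and without WT B6 replicate 2 (-0.53). *Clic6* and *Folr1* were both at -0.50 and were called lower only after centring. The plexus markers *Ttr* (0.01) and *Kl* (0.35) were not lower, and the mean of the list was -0.11 in WT B6 replicate 1, within the WT 129 range of -0.13 to 0.02, against 0.23 and 0.30 in the other WT B6 brains.

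**Figure D4:**
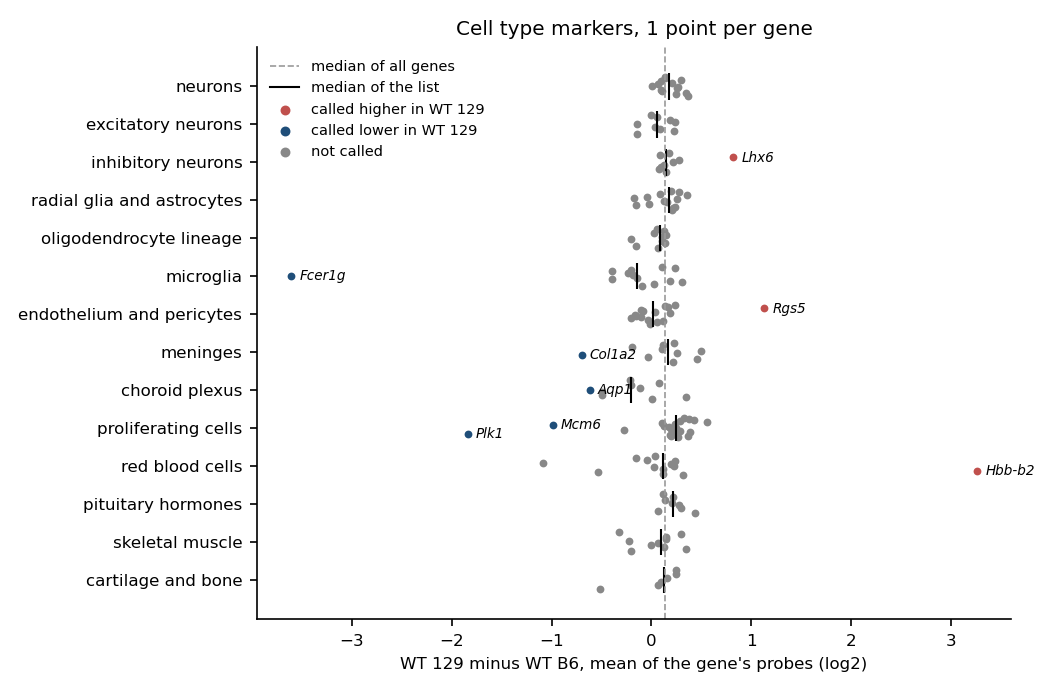
Differences between WT 129 and WT B6 brains (log2, x axis) of the marker genes of 14 cell types (y axis), 1 point per gene as the mean of its probes, n = 3 brains per strain; black bars are list medians and the dashed line the median of all genes. Called genes are named, and the neuronal and glial lists hold none besides *Lhx6* and *Fcer1g*.

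Of 21 genes of dividing cells, 2 were lower (9.52%, against 1.54% of all genes). *Plk1*, a mitotic kinase, read -0.92, -0.90 and -0.83 in WT 129 and 0.67, 1.06 and 1.13 in WT B6 brains at its 1 probe (-1.84, SE 0.12). *Mcm6*, of the replicative helicase, was lower by 0.99 on the mean of 4 probes, of which 1 was called (-3.19), and is taken up again among the flagged results. The other 19 were not called, among them *Birc5* (0.56), *Top2a* (0.37) and *Bub1b* (-0.28), and the list median was 0.25 (at an unadjusted p under 0.05, 11 genes were higher and 3 lower).

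Blood genes showed a difference between globin genes. *Hbb-b2*, an adult beta globin, read 1.93, 1.48 and 1.38 in WT 129 and -2.03, -1.43 and -1.53 in WT B6 brains (3.26, SE 0.16). Of 11 probes of *Hbb-b1*, the other adult beta globin, 2 were lower, at -3.03 and -2.81, and 9 were not called, from -0.57 to 0.40. *Hba-a1*, an alpha globin, was at 0.32 (SE 0.18) and was not called. The globins are near-copies of each other, and which of them a probe reads is uncertain. WT B6 replicate 2 stood above its group at *Hbb-b1* (0.89 against 0.02 and 0.25) and at the red cell anion exchanger *Slc4a1* (1.91 against -0.41 and 0.28), and the part of blood in these values was not tested.

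Of 10 genes listed as known to vary among inbred strains, 5 were higher in WT 129 and 0 lower, against 1.23% and 1.54% of all genes. After centring 5 were higher and 1 lower, and 1 gene had a probe called lower as deposited. The list was chosen with earlier results of these data known, so its counts are not independent evidence. Beside *Hbb-b2* the 5 higher genes were *H2-Bl*, *Wdfy1*, *Glo1* and *Alad*. *H2-Bl*, a class I histocompatibility gene, read 1.21, 1.25 and 1.13 against -1.0, -1.35 and -1.02. *Glo1*, which detoxifies methylglyoxal, read 0.58, 0.53 and 0.50 in WT 129 and -0.47, -0.36 and -0.47 in WT B6 brains (0.97, SE 0.09). *Alad*, of heme synthesis, was higher by 0.89 (SE 0.11). *Nnt* (0.19 over 7 probes), *Disc1* (0.18 over 5) and *Ifi202b* (0.33 over 3), from the same list, were not called at any probe.

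Over 58 gene lists with 3979 genes, 46 genes (1.16%) were called higher and 63 (1.58%) lower, close to the shares of all genes. The zinc finger genes named *Zfp*, mostly DNA-binding repressors, had 3 of 345 (0.87%) higher and 14 (4.06%) lower. The lower ones include *Zfp365* (-3.22), *Zfp940* (-3.09), *Zfp235* (-2.95) and *Zfp330* (-2.92), and 1 of the 163 with several probes was called at all of them, *Zfp933*. *Zfp940* read -1.54, -1.68 and -1.86 in WT 129 and 1.57, 1.30 and 1.33 in WT B6 brains, at 1 probe. Its measured neighbour on chromosome 7, *Zfp420*, was called lower as well.

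In the proteasome and COP9 list 4 of 57 genes were lower (7.02%, against 1.54% of all genes) and 0 higher. Beside *Cops8* they were *Psmd8* (-1.70), *Psmb5* (-1.31) and *Psmc4* (-0.98), subunits of the proteasome. *Psmd8* and *Psmc4* each rest on 1 of 2 probes, -3.54 against 0.14 and -2.0 against 0.05. Of 61 cytosolic ribosomal proteins 3 were lower (4.92%), *Rpl29* (-2.40), *Rps15a* (-1.61) and *Rps13* (-1.06), and the list median was 0.06. *Rps13* read -2.07 at its called probe and -0.05 at the other. Among 21 antioxidant enzymes 2 were lower (9.52%). *Prdx2*, a peroxiredoxin, was lower at 2 of 3 probes (-3.92, -2.17 and -0.03) and *Glrx*, a glutaredoxin, at 1 of 2. The glutathione transferases *Gstm6*, at all 3 probes (-1.48, -1.17 and -0.70), and *Mgst1* were lower too, 2 of 25 (8.0%). *Mgst1* read -2.52 at its called probe and 0.12 at the other.

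Chemokines gave 3 lower genes of 53 (5.66%, against 1.54% of all genes), each with homeostatic or mucosal roles. *Ccl21a* read -1.14, -0.82 and -1.19 in WT 129 and 0.93, 1.49 and 1.13 in WT B6 brains (-2.23, SE 0.15), *Ccl21c* differed by -1.99 and *Ccl25* by -1.22. *Ccl25* read -2.50 at its called probe and 0.06 at the other. *Ccl21a* and *Ccl21c* are near-copies, and their probes may read the same transcripts. The chemokine receptor *Ackr3* was higher (0.68) only in the values as deposited.

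The study's question makes ciliary and hydrocephalus genes a natural set. These lists include genes that the study named from the same arrays, so their counts are not independent evidence. Of 35 motile cilia genes 1 was higher as deposited (2.86%, against 1.23% of all genes), *Drc1* (0.61), and 0 after centring (0.48). At an unadjusted p under 0.05, 9 were higher and 1 lower. Of 37 genes of primary cilia 3 were lower (8.11%, against 1.54% of all genes) and 1 higher (2.7%, against 1.23%). After centring the counts were 5 and 1, against 2.23% and 0.734% of all genes. At an unadjusted p under 0.05, 9 of the 37 were lower and 1 higher. *Myo7a*, a myosin of sensory hair cells, read -1.36, -1.23 and -1.32 in WT 129 and 1.47, 1.28 and 1.35 in WT B6 brains at its 1 probe. *Ehd3*, a trafficking ATPase, differed by -1.44 at 1 probe. *Arl3*, a ciliary GTPase, differed by -2.83 at 1 probe and by -0.10 at the other. *Nubp2*, a regulator of centriole number, was higher at 2 of 3 probes (1.12, 0.95 and 0.10).

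Of 25 hydrocephalus genes 2 were lower (8.0%, against 1.54% of all genes), and 4 after centring (against 2.23% of all genes). *Ccdc88c*, a Dishevelled-binding protein mutated in human hydrocephalus, read -0.41, -0.61 and -0.56 in WT 129 and 0.63, 0.67 and 0.29 in WT B6 brains. It was called at 2 of 3 probes (-1.44, -1.29 and -0.44). *Rnd3*, which acts on the actin cytoskeleton, read -0.90, -0.88 and -0.99 against 1.60, 0.60 and 0.53, with WT B6 replicate 1 well above the others. The methods' t-test called neither *Ccdc88c* nor *Rnd3*. The study reported both as differing between the strains in its *nm1054* comparison alone. Their calls in WT brains here therefore depart from the study and rest on limma. *Mpdz*, a tight junction scaffold, was not called at any of 5 probes, which ran from -0.26 to 0.11. *Elmo1* (14 probes, -0.22 to 0.39), *Ift74* (3 probes, -0.17 to 0.41) and *Snx10* (1 probe, 0.11) were not called either. The study named *Snx10* as differing in expression between WT brains of the strains. The probe named *Snx10* here did not show this, and whether another probe was read there was not tested. The study named *Mpdz*, *Elmo1* and *Ift74* by present and absent calls, *Ift74* in the mutant comparison alone. Detection calls were not used here, so the differences above do not test them.

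Several ciliary and centrosomal genes were called at 1 probe and not at the rest. *Mkks* read -1.98 at 1 probe and 0.26 and 0.39 at the others. *Cep162* read -1.14 against 0.03, *Cdh2* -1.10 against 0.07, *Wdr92* -1.07 against 0.19, and *Cep43* 1.13 against -0.10. *Atf4*, a stress-response transcription factor, read -2.67 at 1 probe and 0.35 at the other. *Sparc*, a matrix protein, read -2.52 at 1 of 4 probes and -0.07 to -0.01 at the rest. *Pcm1* was called at 1 of 5 probes (-0.76) and *Mdm1* at 1 of 11 (-0.81). *Spag1*, a dynein arm assembly factor, was called in opposite directions, 1.03 at 1 probe and -0.59 at the other, with the strains apart at both.

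The largest probes among genes with further probes on the array were mostly alone in their gene. *Zfp330* probe ILMN_2825109 read -2.64, -2.91 and -2.89 in WT 129 and 2.68, 2.81 and 2.64 in WT B6 brains. It differed by -5.53 (SE 0.11), and the other probe of the gene by -0.31 (SE 0.13). *Cox7a2l*, which helps assemble respiratory supercomplexes, differed by -5.09 at 1 probe and -0.09 at the other, *Tmem25* by -5.09 against 0.17 and 0.25, and *Mak16* by -4.18 against -0.11 and 0.00 (not called). *Epm2aip1* had 1 probe at -4.91 and 4 from -0.43 to 0.26. Among probes higher in WT 129, *Tmem87a* read 2.89 against -0.01, *Trappc12* 2.31 against -0.32, *Sfrp1*, a Wnt antagonist, 2.70 against 0.52, and *Paip1* 2.40 against 0.56. *Masp2*, a protease of the lectin complement pathway, stood out, with 3 of its 4 probes called (2.58, 1.73, 1.64 and 0.38).

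**Figure D5:**
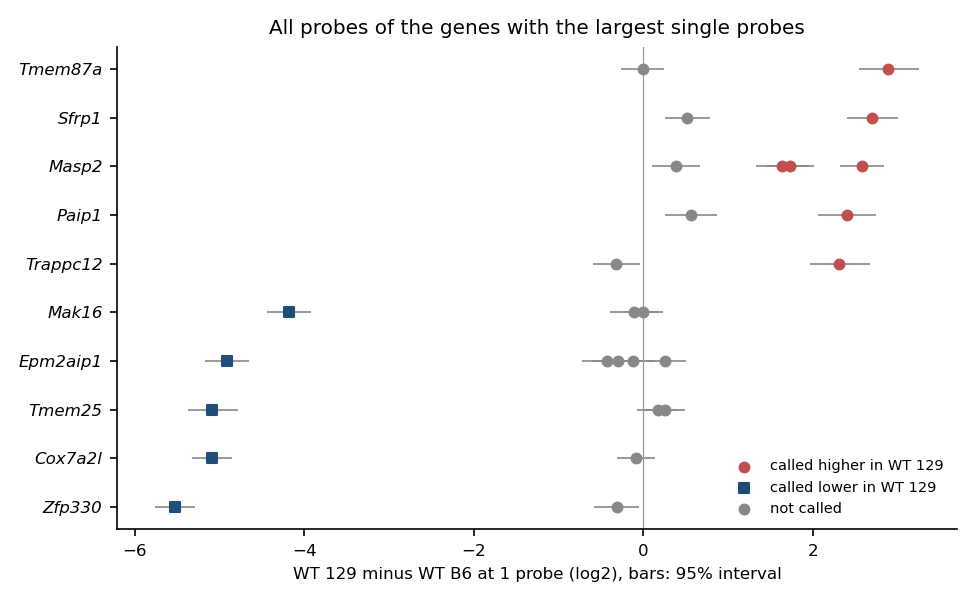
Difference between WT 129 and WT B6 brains (log2, x axis, bars are 95% intervals of limma, n = 3 brains per strain) at every probe of the 10 genes (y axis) that hold the 5 largest called probes of each direction among genes with several probes. At *Zfp330*, *Cox7a2l*, *Tmem25* and *Tmem87a* the other probes lie between -0.31 and 0.25, while *Masp2* has 3 called probes.

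Over all genes with several probes, a called probe had another probe of its gene called alike in 25 of 69 cases (36.2%) where it was lower by over 4-fold, in 51 of 140 (36.4%) from 2 to 4-fold and in 53 of 187 (28.3%) from 1.5 to 2-fold. The median difference of the other probes was -0.03, 0.02 and -0.05 in these bins. For probes called higher the shares were 3 of 9 (33.3%), 44 of 90 (48.9%) and 76 of 277 (27.4%), and the other probes had medians of 0.37, 0.34 and 0.23. Probes were called in both directions within 18 genes. The widest was *Ndufb10*, a subunit of respiratory complex I, at 1.5 and -3.40. Whether the probes of such a gene read different transcripts or pair differently with the alleles was not tested.

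Along the genome, 528 of 19818 genes with a place in RefSeq were called (2.66%). The share was 4.81% on chromosome 14, 3.95% on chromosome 4 and 3.78% on chromosome 17, and 1.03% on chromosome 19 and 0.384% on X. Called genes stood beside each other in 32 runs, which hold 70 genes, and in 21 runs all members moved in the same direction. The longest, of 5 genes on chromosome 14, is *Gm2888* (2.41), *Gm2897* (1.11), *D830030K20Rik* (-0.59), *Gm10413* (1.62) and *Gm3029* (0.86), related predicted genes that probes may not tell apart. *D830030K20Rik* read -2.20 at its called probe and -0.54 to 0.29 at the rest. On chromosome 9 *Aste1* (-0.75), *Atp2c1* (-1.70) and *Pik3r4* (-0.59) were all lower on the mean of their probes. *Atp2c1* read -3.50 at its called probe and 0.09 at the other. *Pik3r4* read -1.54 and -0.96 at its called probes and -0.15 and 0.31 at the rest. On chromosome 4 *Zfp933* (-2.05) and *Miip* (-0.71) were lower and *Fv1*, a retrovirus restriction gene, higher (0.77, at 3 of 4 probes). On chromosome 13 *Paip1* (1.48) was higher and *4833420G17Rik* (-0.64) and *3110070M22Rik* (-1.01) lower. The called probe of *4833420G17Rik* read -1.47 and its other probe 0.18.

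Brains that carry the *nm1054* deletion gave a further set of strain differences. Of the 606 genes called in WT brains, 604 had the same sign in *nm1054* brains and 465 (76.7%) were called there too. The interaction was called at 0 genes by limma on the mean of their probes (780 at an unadjusted p under 0.05) and at 1 probe, in *Mcm6*.

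The sexes were unevenly spread. *Xist*, transcribed in females from the inactive X, was at 2.35 and 2.34 in WT 129 replicates 2 and 3 and 1.78 in WT B6 replicate 1, and between -1.91 and -1.84 in the other WT brains. *Eif2s3y*, on the Y chromosome, was high in those others (1.37 to 1.40). WT 129 thus has 2 brains of the female pattern and WT B6 has 1. With the *Xist* level as a covariate, a setting added after these values had been seen, limma called 338 genes higher and 336 lower, and 588 of the 606 genes were among them. WT B6 replicate 1 is both the WT B6 brain of female pattern and the array of the lowest median (-0.17).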

How the data were processed

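RNA of 12 whole brains was measured on Illumina MouseWG-6 arrays. The authors read intensities with GenomeStudio. Normalization was done in GeneSpring GX. The deposited table holds log2 values, each relative to its probe's median over the 12 arrays. Versions and the kind of normalization are not given in the sources used here. Precision is limited by the number of arrays.

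Of 45281 probes, none removed, 35784 were given a gene symbol (28620 through the gene identifier, 2637 through the transcript identifier, 4527 by the platform's symbol; 9497 have none), which makes 21934 genes. RefSeq (GRCm38.p6) gave names, gene order and promoters. limma 3.58.1 in R 4.3.3 fitted 12 arrays with a mean per group (8 residual and 10.8 prior degrees of freedom for probes). Tests are two-sided. Nothing says that the brains came from separate litters, so p-values measure the spread between these brains. Tested on simulated data of 45281 probes between WT 129 and WT B6, the fit found 92% of probes shifted by 0.8 log2 units, 98% of those shifted by 1, and 100% of those shifted by 2 or 4, with 2 false calls. The simulated noise was normal and independent between probes, with no shift of whole arrays. These shares and the false calls need not hold for the real arrays. Figures used Python 3.11.15 and matplotlib 3.10.9.

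Named genes were, per direction, the 10 of largest mean difference called at every probe and the 5 of the largest probes with other probes on the array, up to 4 called genes per list, genes that the study names as differing between strains, the longest runs, and cell type and sex markers (predicted genes skipped outside the runs). *Apoa2*, *Zfp420* and the other mast cell and H2A genes were added after their values were seen. Members and lists were chosen with earlier results of these data known. Alternatives were centring, quantile normalization, the methods' t-test, the WT arrays alone, a replicate block, array weights, removal of less variable features, a robust variance estimate, other fold thresholds, each WT array left out and, chosen after seeing the data, the *Xist* covariate and centring with an array left out. Detection calls were not used here.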

Additional observations from a re-analysis of the deposited data

Results flagged for a closer look

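*Mcm6*, a helicase subunit of DNA replication on chromosome 1, was the 1 named gene whose strain difference itself differed between WT and *nm1054* brains. At probe ILMN_1217331 the values were -3.17, -3.03 and -3.16 in WT 129 and -0.43, 0.40 and 0.23 in WT B6 brains, but 0.40, -0.45 and 0.01 in *nm1054* 129 and 0.20, -0.01 and 0.12 in *nm1054* B6 brains. The low values are those of WT 129 alone. The study places the *nm1054* deletion on chromosome 1 as well, and whether this shared chromosome bears on the values was not tested. The strain difference was -3.19 (SE 0.19) in WT and -0.12 (SE 0.19) in *nm1054* brains, and the difference of the differences was -3.07 (SE 0.27, adjusted p = 4.15e-05, limma interaction). The other 3 probes of *Mcm6* read -0.49, -0.37 and 0.10 in WT and 0.25, 0.20 and -0.07 in *nm1054* brains. On the mean of its 4 probes the interaction of *Mcm6* was not called.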

How the results depend on the processing

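The methods' t-test and the fold threshold moved the number of calls by over 1.5 times, and scaling moved their direction. The share of called probes higher in WT 129 was 50.2% as deposited, 29.3% centred, 33.6% by quantile normalization, 33.9% by the methods' t-test, 55.3% with the *Xist* covariate, 68.5% with no fold threshold and 34.9% over 2-fold, and without single WT arrays it ran from 46.1% to 62.9% (when also centred, 30.7%, 30.5% and 28.2% without WT 129 replicates 1, 2 and 3, and 36.7%, 29.3% and 27.0% without those of WT B6). Called probes numbered 543 by the methods' t-test, 3528 with no fold threshold and 604 over 2-fold, in place of 1510. Genes called on the mean of their probes numbered 298, 1731 and 245, in place of 606, and genes called at every probe 11, 108 and 17, in place of 47. Under every other setting run, these 3 totals stayed within 1.5 times. By direction they moved more: the genes called higher were 269 as deposited, 161 centred and 464 without WT B6 replicate 3, and the genes called higher at every probe were 22 as deposited and 11 centred. Leaving out single WT arrays gave 1407 to 2033 probes, 580 to 798 genes and 45 to 62 genes called at every probe.

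With the replicate number as a block, 1502 probes, 601 genes and 47 genes at every probe were called, with a share of 50.0% higher. Same-numbered WT brains deviated with correlations of -0.23, -0.01 and -0.24. With 3 brains per group these values cannot settle whether the numbers pair brains, and the main fit did not pair them. Of 123 named genes called, 9 were not called after centring, 60 not by the methods' t-test, and 2 to 13 without a WT array. None of the 123 changed direction in any setting run. They were picked as called beyond 1.5-fold, and centring shifts a difference by 0.13, so it could not reverse one. Without detection calls, a gene near background cannot be told from a measured one.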

Other observations

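Further families gave isolated calls. Among 354 solute carriers 3 were higher (0.847%, against 1.23% of all genes) and 5 lower (1.41%, against 1.54%). *Slc7a14* was higher at 2 of 3 probes (1.94, 1.87 and 0.37), and *Slc25a18*, a mitochondrial glutamate carrier, read -1.12, -1.10 and -1.19 in WT 129 and 1.71, 1.10 and 1.52 in WT B6 brains. *Slc5a7*, the choline transporter of cholinergic neurons, was lower by 1.23. Of 71 transmitter receptor subunits 1 was higher and 1 lower (1.41% each, against 1.23% and 1.54% of all genes). *Gria1*, of AMPA receptors, was higher at 3 of 4 probes (0.83 on the mean, with WT B6 brains from -0.79 to -0.17). *Htr3a*, of the serotonin-gated channel, was lower (-0.90). Both calls held after centring, and the methods' t-test did not call *Gria1*.

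Matrix and adhesion genes were split. *Lama3*, a laminin chain, was higher by 1.24 (SE 0.11) and *Col20a1* by 0.76, while *Col1a2* of fibroblasts was lower by 0.70. The cadherins *Cdh6* (-1.32) and *Cdh4* (-0.92) were lower, 2 of 89 in their list (2.25%, against 1.54% of all genes). *Rbm45*, an RNA-binding protein, read 0.70, 0.77 and 0.70 in WT 129 and -2.17, -0.95 and -0.70 in WT B6 brains, and the difference of 2.00 was 1.55 without WT B6 replicate 1. Of 1241 olfactory and vomeronasal receptor genes 4 were called higher (0.322%, against 1.23% of all genes), and 2 after centring. The 4 were *Olfr145* (0.79), *Olfr734* (0.64), *Olfr807* (0.72) and *Olfr972* (0.62). At an unadjusted p under 0.05, 354 of these receptor genes were higher and 0 lower. Their median difference was 0.21, against 0.14 over all genes. The count of called receptor genes depends on single arrays, with 1 called without WT B6 replicate 1 and 27 without WT B6 replicate 3.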
